A study of Mus musculus with 8 samples.

Results

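The COMMD family comprises 10 mouse genes, Commd1 to Commd10, which encode small proteins named for a shared copper metabolism MURR1 domain. The members were chosen by symbol: all probe sets annotated with a single gene symbol, that symbol being Commd1 to Commd10, which gave 20 probe sets for 10 genes, out of 34945 such probe sets for 18193 genes. The family was itself selected on results of the same arrays, so the values of its members in the comparison of genotypes are given as a description: calls of the fit over all probe sets are counted, but no p-value of a member is given and the calls are not evidence for the family. All 20 probe sets passed the filter on low signals and entered the fit over 27022 probe sets. Commd4 and Commd6 have 1 probe set each, 6 genes have 2, and Commd5 and Commd9 have 3.

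Affymetrix arrays, 1 per sample, measured RNA levels of fetal mouse small intestine taken 18.5 days post coitum. There were 4 Plagl2 knockout and 4 wild-type samples. PLAGL2 is a DNA-binding zinc finger protein related to PLAG1. The labels do not say how the knockout was made, on which strain, or whether litters were separate, so each p-value reflects only how far these 8 samples scatter, which may be technical. The extraction text speaks of wild-type tissue for all 8 samples, while titles, source names and the design give 4 knockouts. Plagl2 itself gave signals of 697 to 824 in wild-type arrays and 3 to 11 in knockouts with probe set 1417517_at, a difference of -5.18 ± 0.14 (SE, log2(signal + 16) scale, n = 4 per genotype) at an adjusted p of 2.42e-09 (limma, Benjamini-Hochberg). The knockout signals are so dim that the size is set by the added 16, and it ran from -6.87 to -3.59 over the alternatives.

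COMMD proteins assemble into a ring of all family members. With the coiled-coil proteins CCDC22 and CCDC93 they form the CCC complex, which joins the retriever trimer of VPS35L, VPS26C and VPS29, and DENND10, in the larger Commander complex. Commander works at endosomes: SNX17 recognises receptors such as megalin and integrins by motifs in their tails, the WASH complex builds branched actin on the endosomal membrane, and Commander returns the cargo to the cell surface instead of leaving it to the lysosome. Retromer, which shares VPS29 with retriever, sorts other cargo from the same endosomes. COMMD1 was first known for copper handling, through the copper pumps ATP7A and ATP7B, and also binds NF-kappaB subunits and cullins. In the intestine, endosomal recycling keeps nutrient and lipoprotein receptors on the enterocyte surface.

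The 250 bases before the annotated transcription start are printed for 5 members (RefSeq, GRCm38.p6, 5′ to 3′ on the strand of the gene). Commd9, Commd4 and Commd6 are shown because they had the 3 lowest differences by the brightest probe set of each gene, Commd8 and Commd3 because, like Commd9, they hold the E-box CACGTG, which is in capitals.
Commd9, chr2:101886012-101886261, plus strand: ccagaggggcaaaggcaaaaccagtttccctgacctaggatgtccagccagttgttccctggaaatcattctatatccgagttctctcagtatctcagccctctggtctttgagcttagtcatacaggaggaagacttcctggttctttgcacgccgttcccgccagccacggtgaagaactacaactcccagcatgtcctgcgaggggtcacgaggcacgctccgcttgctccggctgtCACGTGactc
Commd8, chr5:72168190-72168439, minus strand: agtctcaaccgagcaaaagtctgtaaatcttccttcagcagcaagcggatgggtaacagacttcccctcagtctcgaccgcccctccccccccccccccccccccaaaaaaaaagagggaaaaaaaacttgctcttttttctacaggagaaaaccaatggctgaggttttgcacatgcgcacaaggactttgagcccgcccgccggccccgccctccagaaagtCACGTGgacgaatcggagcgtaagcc
Commd3, chr2:18672185-18672434, plus strand: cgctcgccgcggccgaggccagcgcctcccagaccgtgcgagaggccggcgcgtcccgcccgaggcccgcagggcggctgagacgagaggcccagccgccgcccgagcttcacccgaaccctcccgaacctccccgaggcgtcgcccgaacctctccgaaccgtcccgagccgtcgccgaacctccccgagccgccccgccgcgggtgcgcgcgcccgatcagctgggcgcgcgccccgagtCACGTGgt
Commd4, chr9:57158300-57158549, minus strand: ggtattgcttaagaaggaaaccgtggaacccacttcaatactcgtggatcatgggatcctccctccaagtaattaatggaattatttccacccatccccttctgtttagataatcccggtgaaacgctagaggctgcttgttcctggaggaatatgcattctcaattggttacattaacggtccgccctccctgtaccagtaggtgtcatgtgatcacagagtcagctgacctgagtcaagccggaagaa
Commd6, chr14:101640472-101640721, minus strand: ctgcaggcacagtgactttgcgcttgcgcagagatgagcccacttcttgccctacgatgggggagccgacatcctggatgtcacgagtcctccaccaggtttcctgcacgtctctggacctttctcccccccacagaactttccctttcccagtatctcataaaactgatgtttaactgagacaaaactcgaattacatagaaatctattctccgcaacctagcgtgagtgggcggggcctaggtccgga
The table of promoters held 8 windows for 7 members (2 for Commd1). Commd2, Commd5 and Commd10 are not among them. CACGTG reads the same on both strands, and its first base lay 10 bases before the start in Commd9, 26 in Commd8 and 8 in Commd3. It was in 3 of 8 member windows and in 6.02% of 32851 windows of all genes. Commd8 and Commd9 had a probe set called as lower in the knockout, while Commd3 had none. The bipartite element reported for PLAG1, the relative of PLAGL2, searched on both strands with 6 to 8 bases between its 2 blocks, matched 0 of 8 member windows and 16.8% of all windows. TATAAA, searched on both strands, was in 2 member windows, of Commd1 and Commd7, and in 12.4% of all. GC content of the member windows ran from 47.2% to 78.8%, with Commd4 lowest and Commd3 highest, against a median of 52.4% over all windows. The number of CpG dinucleotides ran from 7 to 45, against a median of 6. CACGTG itself holds a CpG, and the 6.02% was not matched to windows of like CpG number. These matches describe letters in a window and say nothing of binding.

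COMMD signals were lower in the knockout for most of the family. Of 20 probe sets, 8 were called as lower (adjusted p under 0.05 over all probe sets tested, limma) and 0 as higher (0 also at an unadjusted p under 0.05 and in an unmoderated linear model), where 6.7% of all 27022 probe sets were called as lower and 5.28% as higher. The calls fell on 6 genes, Commd4, Commd6, Commd7, Commd8, Commd9 and Commd10, each also by its brightest probe set, where 8.5% of 12838 genes were called as lower and 6.6% as higher. Commd1, Commd2, Commd3 and Commd5 had no called probe set. In 11 of 20 probe sets every knockout array lay under every wild-type array, as in 9.26% of all probe sets tested. The median difference over the 20 probe sets was -0.43 on the log2(signal + 16) scale, and over all probe sets tested 0.03. Differences ran from -1.35 to 0.24, with 17 of 20 below 0, and in called probe sets the knockout mean was 0.4 to 0.714 of the wild-type mean. These shares follow from the choice of the family and are not a result about it. In bulk tissue, fewer cells of a type and less RNA per cell cannot be told apart.

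**Figure D1:**
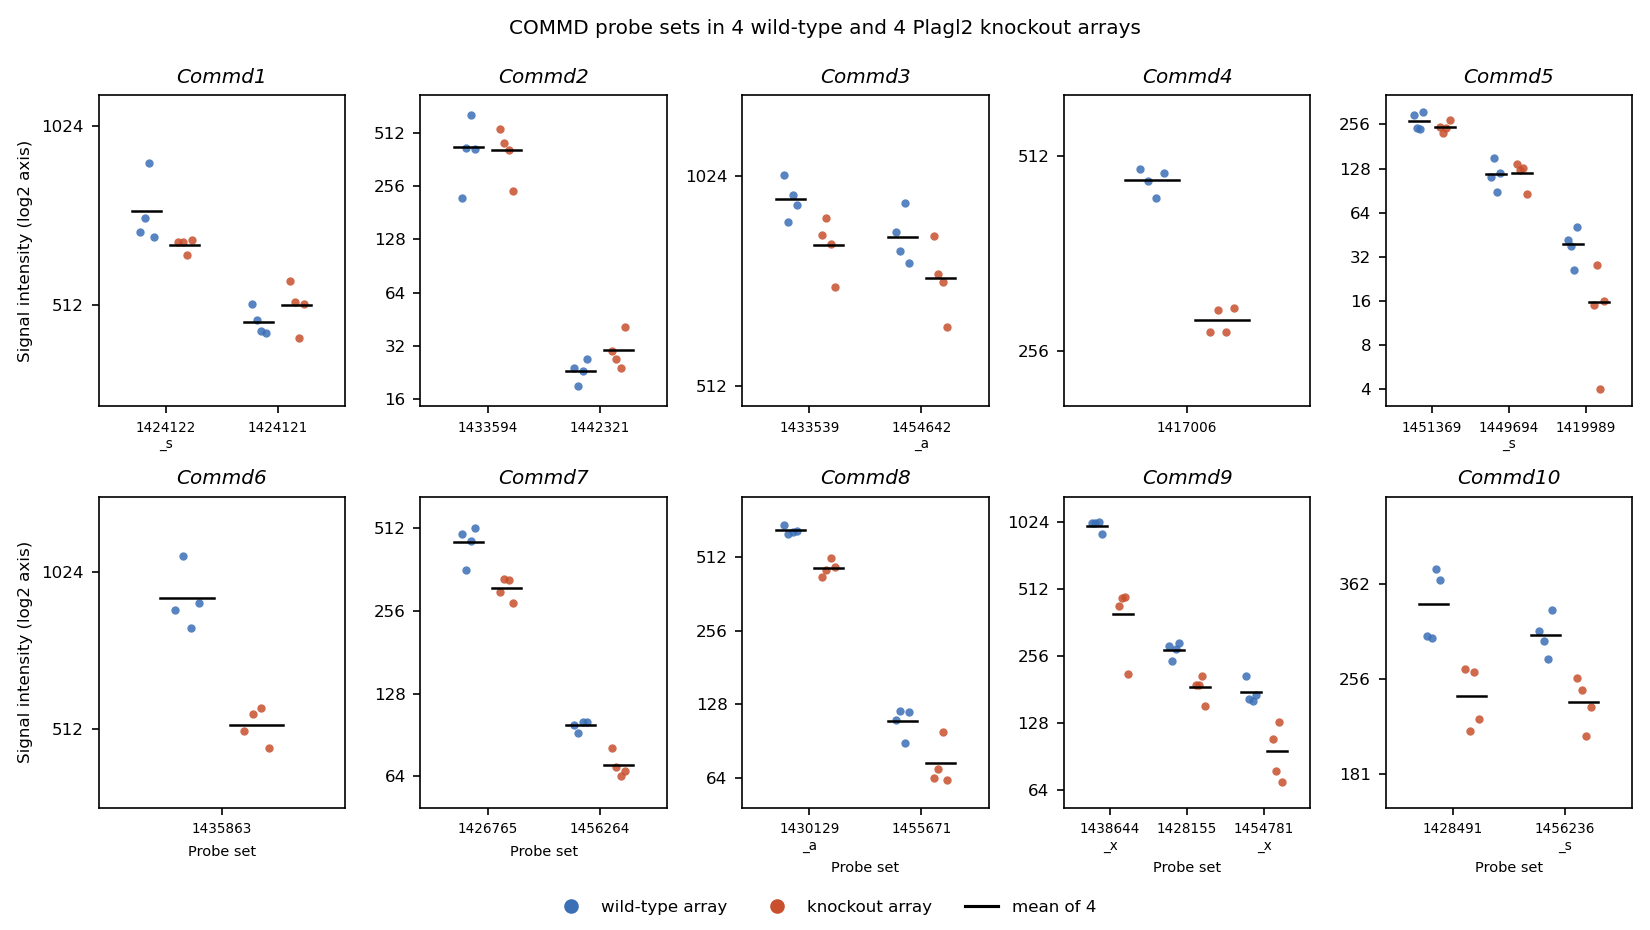
Signal intensity (log2 axis, a scale of its own in each panel) of the 20 COMMD probe sets in 4 wild-type and 4 knockout arrays, with 1 point per array and a line at each mean of 4. Wild-type and knockout points are apart in Commd4 (440 to 488 against 273 to 298), Commd6 and all 3 probe sets of Commd9, and mixed in Commd2.

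Commd9 had the largest single difference of the family, by its probe set 1438644_x_at only. Its other probe sets had -0.80 and -0.53. Beside these, the dim Commd5 1419989_at had -0.83 (not called), Commd6 -0.79 and Commd4 -0.69. Probe set 1438644_x_at gave signals of 1016, 1015, 1025 and 903 in wild-type replicates 1 to 4 and 428, 469, 472 and 213 in knockout replicates 1 to 4. All knockouts lay far under the lowest wild-type array, and knockout replicate 4 stood well below the other knockouts. The mean was 990 ± 58 (SD) in wild-type and 396 ± 123 in knockout arrays, a log2 difference of -1.35 ± 0.21 (SE), and -1.09 without knockout replicate 4. Probe set 1454781_x_at gave 208, 164, 161 and 171 against 108, 78, 129 and 69, with no overlap and a log2 difference of -0.80 ± 0.18. Probe set 1428155_at gave 284, 244, 274 and 292 against 189, 189, 209 and 153, again with no overlap, and a difference of -0.53 ± 0.12. The suffix x marks probe sets with probes that may also match other transcripts, and 1428155_at, without that suffix, had the smallest of the 3 differences. Knockout replicate 4 was the lowest array in all 3. After removal of the genotype means, the 3 probe sets correlated with each other at Pearson r of 0.61 to 0.75 over 8 arrays, which share array and sample.

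By the brightest probe set of each gene, Commd6 and Commd4 were the next lowest, and their calls held under all 21 alternatives, as did that of Commd9 1438644_x_at. Commd4 (1417006_at) gave 488, 467, 440 and 481 in wild-type and 273, 296, 273 and 298 in knockout arrays, with narrow spreads in both genotypes: 469 ± 21.2 against 285 ± 13.9 (SD). Its log2 difference was -0.69 ± 0.09 (SE), between -0.74 and -0.61 over the alternatives. Commd6, which encodes the shortest protein of the family and little beyond the COMM domain, gave 865, 1097, 798 and 894 with 1435863_at in wild-type arrays. Its knockout signals were 507, 546, 560 and 469, all under the lowest wild-type value. The difference was -0.79 ± 0.11, between -0.91 and -0.70 over the alternatives.

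Commd8 was called through 1 of 2 probe sets, both with a log2 difference of -0.49. COMMD8 binds CCDC22 with other members of the family. Its probe set 1430129_a_at gave 691, 636, 646 and 654 in wild-type and 425, 454, 508 and 463 in knockout arrays, without overlap (657 ± 24 against 463 ± 34.4, SD). The dimmer 1455671_at gave 111, 120, 89 and 119 against 64, 70, 99 and 63: knockout replicate 3 lay within the wild-type range, and the probe set was not called. It was called when wild-type replicate 3 (-0.58) or knockout replicate 3 (-0.62) was left out. Knockout replicate 3 was the highest knockout array in both probe sets.

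The calls of Commd7 and Commd10 were lost in several fits with 1 array left out, and also in some fits of all arrays. Commd7, whose product has been linked to NF-kappaB, gave 485, 359, 459 and 510 with 1426765_at in wild-type arrays and 300, 335, 331 and 274 in knockouts. Wild-type replicate 2 lay close above the knockouts. The log2 difference was -0.52 ± 0.13 (SE), and the call was lost without wild-type replicate 1 (-0.48), wild-type replicate 4 (-0.46) or knockout replicate 1 (-0.50). Its probe set 1456264_at gave 98, 92, 101 and 101 against 81, 69, 64 and 67, without overlap, a difference of -0.41 ± 0.13 that was not called, although 4 alternatives called it as lower.
Commd10, a member whose product is known from endosomes and lysosomes of macrophages, gave 300, 297, 383 and 367 against 266, 212, 263 and 221 with 1428491_at. The groups did not overlap, but wild-type replicates 1 and 2 lay nearer to the knockouts than to the other wild-type arrays. The difference was -0.46 ± 0.13, and 13 of 21 alternatives ended the call. Among them were the fits without wild-type replicate 1 (-0.51), 3 (-0.40) or 4 (-0.42) and without knockout replicate 1 (-0.51), 2 (-0.40) or 4 (-0.42). The second probe set, 1456236_s_at, gave 305, 294, 275 and 330 against 257, 246, 208 and 231, a difference of -0.34 ± 0.11 that was not called, although without wild-type replicate 3 (-0.38) it was.

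Commd1, the founding member, had probe sets that went in different directions. With 1424121_at it gave 514, 483, 464 and 460 in wild-type and 562, 519, 450 and 515 in knockout arrays, overlapping, with a log2 difference of 0.09 ± 0.10 (SE). With 1424122_s_at it gave 680, 717, 888 and 667 against 655, 654, 621 and 659, so all knockouts lay just under the lowest wild-type array, and the difference was -0.18 ± 0.10. The 2 probe sets did not correlate after removal of the genotype means (r = -0.03 over 8 arrays). Commd3 gave 1028, 880, 962 and 930 against 842, 892, 819 and 709 with 1433539_at, a difference of -0.22 ± 0.10, and -0.20 ± 0.11 with 1454642_a_at. Its genotypes overlapped in both probe sets. The 2 correlated at r = 0.68 over 8 arrays after removal of the genotype means.

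Commd2 and Commd5 were the most scattered members. Commd2 gave 218, 422, 641 and 414 in wild-type and 537, 449, 408 and 240 in knockout arrays with 1433594_at. Wild-type replicate 1 and knockout replicate 4 were both low, and the log2 difference was -0.01 ± 0.29 (SE), so a difference as large as that of Commd8 lies within 2 standard errors of it. Probe set 1442321_at of Commd2 was dim, at 19 to 27 against 24 to 41, with a difference of 0.24 ± 0.20. Commd5 gave 295, 241, 239 and 311 against 244, 225, 243 and 274 with its brightest probe set, 1451369_at, overlapping, with a difference of -0.13 ± 0.12. Its probe set 1449694_s_at had 0.02 ± 0.18. The dim 1419989_at differed from both, with 42, 38, 26 and 51 against 15, 28, 4 and 16. Its difference of -0.83 ± 0.27 was not called, but was without wild-type replicate 3 (-0.96) or knockout replicate 2 (-1.01). At that brightness the size depends on the added 16, and it ran from -1.47 to -0.38 with other offsets.

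**Figure D2:**
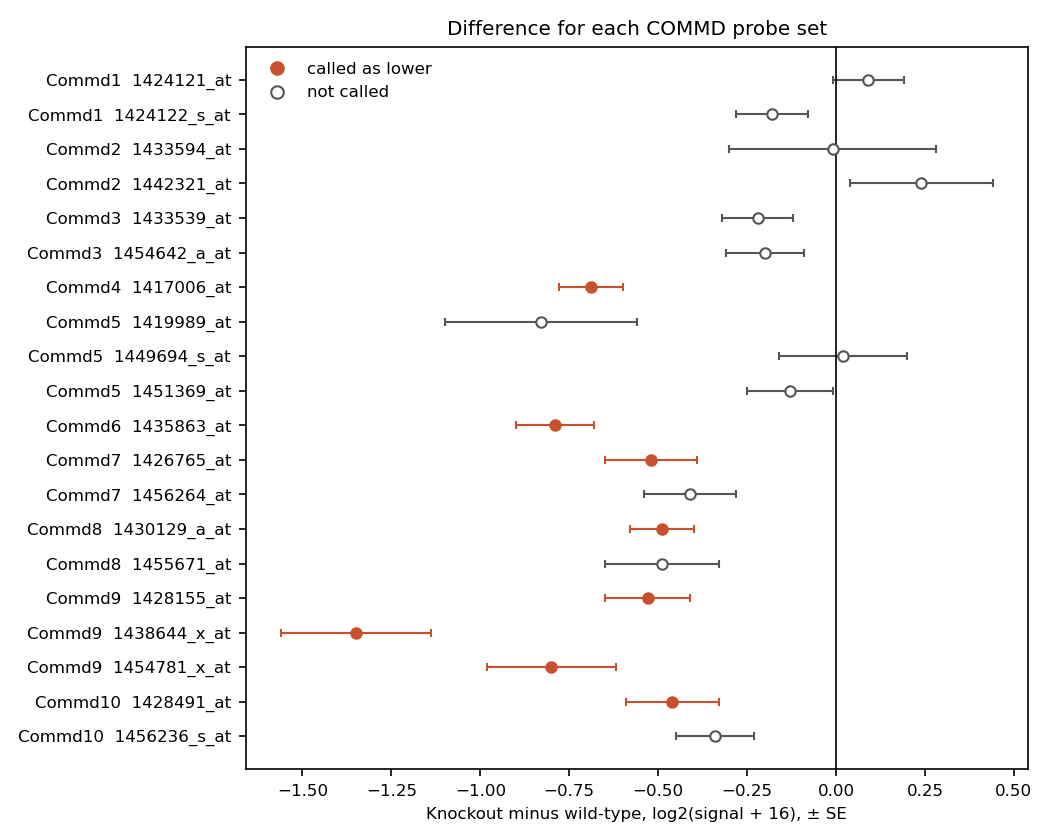
Knockout minus wild-type difference on the log2(signal + 16) scale for each COMMD probe set, with its standard error (n = 4 per genotype). Filled points are the 8 probe sets called as lower, and open points the 12 not called. Commd9 1438644_x_at is lowest at -1.35 and Commd2 1442321_at highest at 0.24.

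The Commander partners of COMMD proteins are not members of the family, and p-values of the fit are given for them. Their list was also chosen with results of these arrays known, so its counts are not independent evidence. Of 7 genes, each by its brightest tested probe set, 5 fell in the knockout, 0 rose and 2 were not called (limma). At an unadjusted p under 0.05 also 0 rose. Their median was -0.45, against 0.03 over 12838 genes, of which 8.5% were called as lower and 6.6% as higher. Vps29, the subunit that retriever shares with retromer, gave 2868, 2618, 2783 and 2576 in wild-type and 1992, 2016, 2205 and 1969 in knockout arrays. The genotypes were well apart, and the log2 difference was -0.40 ± 0.08 (SE, adjusted p = 0.0041, limma). Vps26c, the arrestin-fold subunit of retriever, fell by 0.47 (-0.47 ± 0.10, adjusted p = 0.0103), with 613 to 717 in wild-type and 425 to 521 in knockout arrays. The retriever scaffold Vps35l gave 448 to 563 against 333 to 385 and fell by 0.45 (adjusted p = 0.018). Ccdc22, an X-linked scaffold of the CCC complex, gave 152 to 166 against 93 to 128 (-0.52 ± 0.13, adjusted p = 0.0204). Its partner Ccdc93 gave 503, 382, 368 and 455 against 190, 299, 319 and 303 with 1434953_at (-0.61 ± 0.16, adjusted p = 0.0327). A second, dimmer Ccdc93 probe set, 1426928_at, gave 160 to 191 against 68 to 99 (-1.04 ± 0.14, adjusted p = 0.000427), and the remaining tested one, 1432497_at, had -0.10 ± 0.24 (adjusted p = 0.834). Not all probe sets of a gene were called: 1 of 4 tested was lower for Vps29, 1 of 4 for Vps35l and 1 of 2 for Ccdc22. The uncalled tested ones also had negative differences, from -0.70 to -0.21 for Vps29, -0.46 to -0.10 for Vps35l and -0.37 for Ccdc22. Dennd10 had -0.26 ± 0.11 (adjusted p = 0.177) and Snx17, the cargo adaptor, -0.03 ± 0.07 (adjusted p = 0.85). These 2, as the other uncalled genes of the lists, were named after their values were seen.

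The calls of 3 partners were likewise lost in several fits with 1 array left out, and also in some fits of all arrays. The adjusted p of Vps35l (limma) rose to 0.0684 without wild-type replicate 1, to 0.0546 without wild-type replicate 2 and to 0.0618 without knockout replicate 2. Ccdc22 was not called without the same arrays (0.0645, 0.0634 and 0.0695). Ccdc93 1434953_at was not called without wild-type replicate 1 (0.108), 2 (0.0557) or 4 (0.0911) and without knockout replicate 1 (0.0672) or 2 (0.0587). Vps29 and Vps26c kept their calls with any 1 array left out, but not in all fits of all arrays. Vps26c was not called with replicate number as a block (adjusted p = 0.065, limma). After adjusting for the ratio of 3′ and 5′ control signals, neither Vps26c (0.185) nor Vps29 (0.113) was called. The count of 5 became 2 without wild-type replicate 1, without wild-type replicate 2 and without knockout replicate 2.

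The WASH complex, which activates the Arp2/3 complex on endosomes, had 3 of 5 genes lower and 0 higher (limma), with a median of -0.69. At an unadjusted p under 0.05 also 0 were higher. Over all genes, 8.5% were called as lower and 6.6% as higher. Washc4 gave 451, 412, 431 and 416 in wild-type and 214, 205, 205 and 220 in knockout arrays with 1439450_x_at, with little spread in either genotype (-0.97 ± 0.10, adjusted p = 4.41e-05, limma). All 4 of its tested probe sets fell, from -0.97 to -0.76. Washc2, the subunit with a long tail that binds retromer and the CCC complex, gave 1421 to 1643 against 835 to 953 (-0.80 ± 0.09, adjusted p = 7.37e-05). Washc5, also known as strumpellin, gave 1049 to 1273 against 661 to 714 (-0.69 ± 0.09, adjusted p = 0.000312). These 3 calls held under all 21 alternatives. Washc1, the subunit that activates Arp2/3, had 0.03 ± 0.11 (adjusted p = 0.89), and Washc3 -0.29 ± 0.12 (adjusted p = 0.156). Their dimmer tested probe sets had -0.47 ± 0.18 for Washc1 (1451404_at, adjusted p = 0.128) and 0.15 ± 0.21 for Washc3 (1457628_at, adjusted p = 0.703).

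Of 9 genes of retromer and its sorting nexins, 7 fell and 0 rose (limma), with a median of -0.44. At an unadjusted p under 0.05 also 0 rose. The shares over all genes were 8.5% called as lower and 6.6% as higher. Snx1 and Snx2, membrane-bending nexins, were among the 7 lower genes. Snx1 gave 773 to 1045 against 444 to 477 (-0.98 ± 0.10, adjusted p = 7.67e-05, limma). Snx2 gave 2209 to 2330 against 1270 to 1417 (-0.77 ± 0.07, adjusted p = 3.87e-05). The core subunits Vps26a (-0.61 ± 0.08, adjusted p = 0.000388) and Vps35 (-0.40 ± 0.07, adjusted p = 0.0031) and the adaptor Snx3 (-0.44 ± 0.09, adjusted p = 0.00539) also fell, each without overlap between the genotypes. The remaining called genes were Vps26b (-0.77 ± 0.17, adjusted p = 0.0101) and Snx6 (-0.39 ± 0.12, adjusted p = 0.048). For Snx6, 1 of 4 tested probe sets was lower. Snx27 was not called (-0.33 ± 0.15, adjusted p = 0.186). Snx5 was not called by its brightest probe set (-0.27 ± 0.08, adjusted p = 0.0538), while 3 of its 5 probe sets were lower. The 3 lists were chosen with results of these arrays known, and their counts are not independent evidence of a direction.

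**Figure D3:**
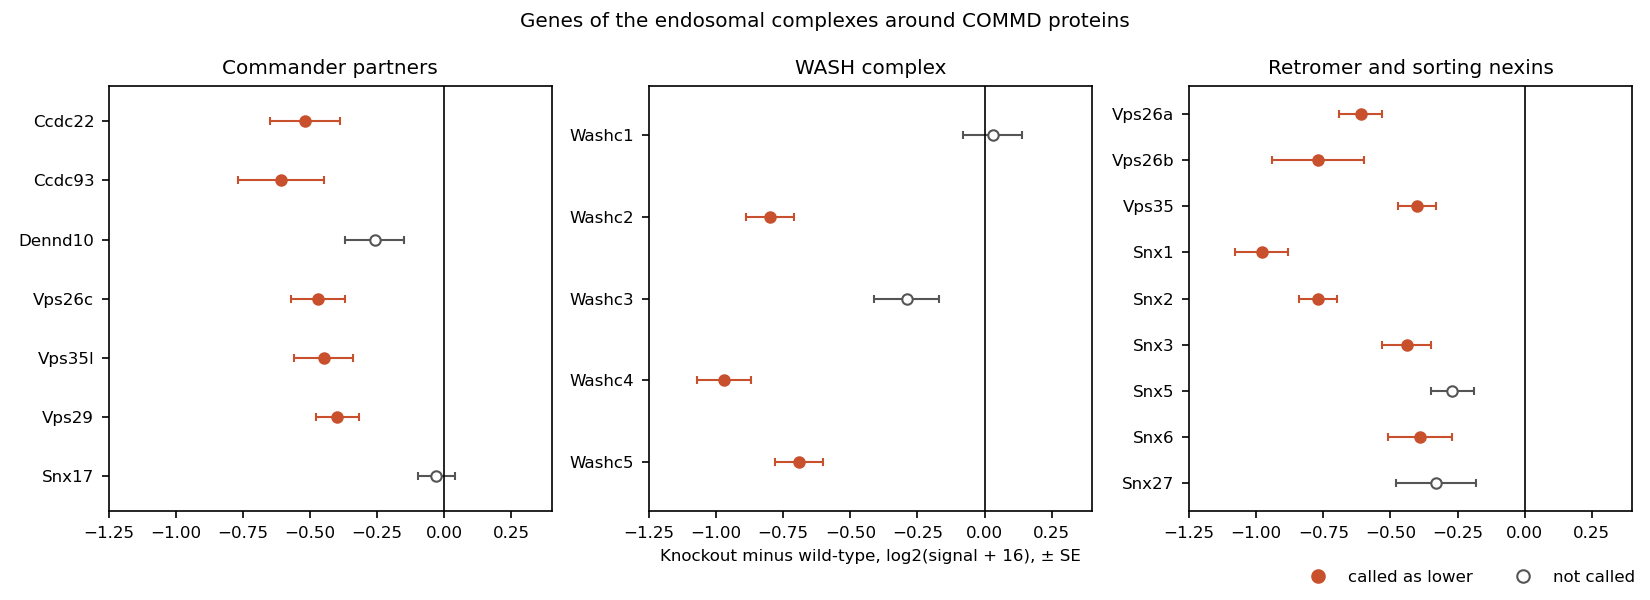
Knockout minus wild-type difference (log2(signal + 16) scale, ± SE, n = 4 per genotype) for the genes of 3 complexes, each by its brightest tested probe set. Filled points, the genes called as lower, are 5 of 7 Commander partners, 3 of 5 WASH genes and 7 of 9 retromer and sorting nexin genes. Over all genes tested, 8.5% were called as lower.

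The shift was present in each knockout array. The median over the 8 called COMMD probe sets, as a log2 difference from the wild-type mean, was -0.62, -0.63, -0.41 and -0.73 in knockout replicates 1 to 4 and -0.07 to 0.06 in wild-type arrays. The called probe sets had to differ, so the distance between the genotypes follows from the choice, and the values show only how the arrays of 1 genotype vary. The 12 other COMMD probe sets had medians of -0.15, -0.17, -0.17 and -0.39 in the knockouts and -0.03 to 0.05 in wild-type arrays. Knockout replicate 4 was lowest in both. The WASH genes varied least between knockouts, from -0.70 to -0.65.

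**Figure D4:**
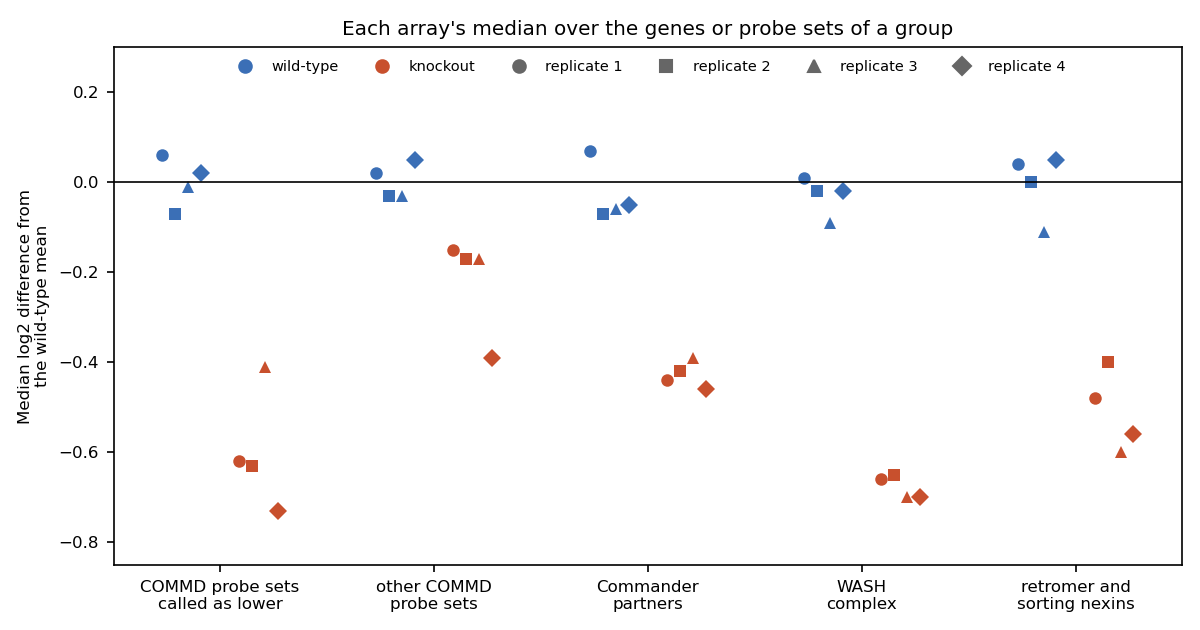
Median log2 difference from the wild-type mean in each of 8 arrays (colour gives genotype, shape the replicate) over the called COMMD probe sets, the other COMMD probe sets and 3 lists of partner genes. Knockout replicate 4 is lowest for both COMMD groups, at -0.73 and -0.39.

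Genes of cargo that SNX17 and Commander recycle did not move one way. Of 8 cargo genes tested, 1 rose, 2 fell and 5 were not called, with a median of 0.10. Over all genes, 6.6% were called as higher and 8.5% as lower. Lrp2, which encodes megalin, an endocytic receptor of the fetal enterocyte, gave 180, 179, 54 and 109 in wild-type and 6, 5, 14 and 6 in knockout arrays. Wild-type replicate 3 was lowest of its genotype, still far above the knockouts. The difference was -2.52 ± 0.31 (adjusted p = 0.000202, limma), with -3.86 at an offset of 1 and -1.38 at an offset of 64. Vldlr, which encodes a receptor for reelin and triglyceride-rich lipoproteins, gave 128, 127, 120 and 112 against 190, 256, 253 and 278 and rose by 0.91 ± 0.13 (adjusted p = 0.000764), also under all alternatives. Itgb5, an integrin subunit, had -0.48 ± 0.14 (adjusted p = 0.0372), but its genotypes overlapped and 13 of 21 alternatives ended the call. Among these were the fits without wild-type replicate 1 (adjusted p = 0.113), 2 (0.12) or 4 (0.0967) and without knockout replicate 1 (0.0823), 2 (0.116) or 3 (0.0685). Each of these 6 fits left 1 lower cargo gene, while 3 were lower without wild-type replicate 3 or without knockout replicate 4. Among the uncalled genes, Lrp1 was higher by its dimmer probe set 1442849_at (0.64 ± 0.17, adjusted p = 0.028, limma). Its brightest had 0.38 ± 0.14 (adjusted p = 0.105). Itgb1 was lower by 1426918_at (-0.34 ± 0.10, adjusted p = 0.0464), and its brightest had -0.40 ± 0.12 (adjusted p = 0.0502).

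The copper proteins linked to COMMD1 had 4 of 9 genes higher and 0 lower (limma), with a median of 0.40. At an unadjusted p under 0.05, 2 were lower. Differences were below 0 in 4 of 9 genes, so the list went both ways. Among these were Slc31a1 (-0.45 ± 0.14, adjusted p = 0.066, limma) and Cox17 (-0.26 ± 0.09, adjusted p = 0.0801), neither of them called. The shares over all genes were 6.6% called as higher and 8.5% as lower. Without moderation of the variance 0 of 9 were called either way, and 0 were higher with Xist as a covariate or on the 6 arrays without Xist signal. Sod1, copper-zinc superoxide dismutase, gave 3333, 3358, 3336 and 2739 against 3997, 3970, 4850 and 4095 (0.40 ± 0.09, adjusted p = 0.0146, limma), and 5 alternatives ended its call (adjusted p from 0.0657 to 0.119). Of 4 tested Sod1 probe sets, 2 were higher, and the uncalled 1435304_at and 1440222_at had 0.06 and 0.32. Ccs, the chaperone that delivers copper to SOD1, gave 250 to 317 against 353 to 495 (0.53 ± 0.13, adjusted p = 0.0183). Its adjusted p was 0.067 without wild-type replicate 1, 0.0618 without wild-type replicate 2 and 0.0624 without knockout replicate 2. The metallothioneins Mt1 and Mt2, which bind zinc and copper, were split by wild-type replicate 3. Mt1 gave 2599, 3074, 7427 and 2310 against 6797, 7639, 7631 and 7601 (1.11 ± 0.28, adjusted p = 0.0232). Mt2 gave 507, 583, 5519 and 404 against 3342, 4670, 3821 and 4493 (2.14 ± 0.63, adjusted p = 0.0473), and 3.00 without wild-type replicate 3. Leaving out wild-type replicate 1, 2 or 4 or knockout replicate 2 ended the call of Mt1 (adjusted p from 0.063 to 0.0791), and every array but wild-type replicate 3 that of Mt2 (0.0732 to 0.138). The count of lower genes became 1 without wild-type replicate 3 and 2 without knockout replicate 3. The 4 higher genes became 1 without wild-type replicate 1, wild-type replicate 2 or knockout replicate 2. The copper pumps Atp7a (-0.21 ± 0.11, adjusted p = 0.258) and Atp7b (0.41 ± 0.12, adjusted p = 0.0513) were not called.

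Of 15 NF-kappaB, cullin and related partners of COMMD1, 13 were tested, 2 rose, 1 fell and 10 were not called, where 6.6% of all genes were called as higher and 8.5% as lower, and their median was 0.01. Nfkbia, which encodes the inhibitor of NF-kappaB whose turnover COMMD1 has been tied to, gave 1210 to 1295 against 1615 to 1863 (0.45 ± 0.08, adjusted p = 0.00284, limma), and 4 of its 5 probe sets were higher. Cul7, a cullin scaffold of ubiquitin ligases, gave 297 to 399 against 124 to 211 (-0.94 ± 0.16, adjusted p = 0.00184). Relb, an NF-kappaB subunit, gave 51, 36, 7 and 25 against 72, 78, 101 and 61 (1.13 ± 0.29, adjusted p = 0.026). Its size depends on the added 16, with 1.63 at an offset of 1 (adjusted p = 0.0521, not called) and 0.61 at an offset of 64, and 0.57 (adjusted p = 0.486) after adjusting for RNA quality by the ratio of 3′ and 5′ control signals. Its adjusted p was 0.0631 without wild-type replicate 4, and 0.0579, 0.0683 and 0.0627 without knockout replicates 1, 2 and 3. Leaving out wild-type replicate 1 gave 2 lower genes in place of 1, and leaving out any of those 4 arrays gave 1 higher gene in place of 2.

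Commd7, Commd9 and Commd3 lie on chromosome 2, which also carries Plagl2. They are far apart: their promoter windows start at base 153632782 for Commd7, 101886012 for Commd9 and 18672185 for Commd3. Between Plagl2 and Commd7 the RefSeq annotation lists 4 protein-coding genes, all tested. In order from Plagl2, Pofut1 fell (-0.96 ± 0.12, adjusted p = 0.000313, limma), Kif3b (-0.33 ± 0.13, adjusted p = 0.145) and Asxl1 (-0.15 ± 0.13, adjusted p = 0.512) were not called, and Nol4l, next to Commd7, fell most (-1.71 ± 0.10, adjusted p = 1.16e-06). Whether nearness to Plagl2 has a part in the Commd7 values was not tested. Of the 20 genes flanking the members, 12 were tested, 3 were lower (limma; 1 in an unmoderated linear model) and 0 higher (0 also at an unadjusted p under 0.05), where 8.5% of all genes were lower and 6.6% higher. The lower ones were Nol4l and Dnmt3b beside Commd7 and Prr5l beside Commd9 (Dnmt3b -0.49 ± 0.14, adjusted p = 0.0476; Prr5l -0.89 ± 0.18, adjusted p = 0.00709). No tested neighbour of Commd4, Commd6 or Commd10 was called.

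The 5 genes whose log2 signals were most like those of Commd9 1438644_x_at over 8 arrays, out of 12828 compared, were Pyy (Pearson r = 0.991), Cdc14b (0.986), Chchd10 (0.985), Ap1g2 (0.982) and Pex2 (0.981). The arrays fall into 2 genotypes, which raises such correlations. After removal of the genotype means r was 0.97 for Pyy, 0.94 for Cdc14b, 0.93 for Chchd10, 0.90 for Ap1g2 and 0.94 for Pex2. The genes were picked as the highest over these same arrays, so these values are also raised by the choice. In the Commd9 probe set, knockout replicate 4 had 213 against 428 to 472 in the other knockouts, so this array weighs heavily in them. All 5 genes had negative differences, from -1.15 in Ap1g2 to -0.37 in Pex2.

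Array medians were 36 to 42, and correlations of log2 signals were 0.95 to 0.974 within and 0.926 to 0.948 between genotypes. The tissue showed its epithelial markers on all arrays (6 of 6 measured, summed signals 16149 to 18850 in wild-type and 16335 to 21164 in knockout arrays), with Krt8 higher (0.52 ± 0.09, adjusted p = 0.0037, limma) and Krt18 lower (-1.02 ± 0.12, adjusted p = 0.000136) in the knockout. Their mean difference was -0.11 (exact permutation p = 0.314, two-sided). The 5 leukocyte markers summed to 3579 to 4991 in wild-type and 1110 to 1557 in knockout arrays, of which 1, Csf1r, was called as lower (-2.38 ± 0.14, adjusted p = 7.88e-07, limma). Csf1r, with a mean of 3752 against 707, made up most of these sums, and the other 4 had differences from -0.44 to -0.01. Their mean difference was -0.67, at an exact permutation p of 0.0286, the smallest that 4 against 4 arrays allow, and 0.257 after adjustment over 9 marker lists. Smooth muscle (5 of 5), fibroblast (5 of 5), endothelial (4 of 4), neural and glial (3 of 5), erythroid (2 of 5) and pancreatic (4 of 5) markers had no called gene in limma; at an unadjusted p under 0.05, 5 of these genes were higher and 0 lower. Of the liver markers 4 of 5 were measured, with summed signals of 75 to 253 in wild-type arrays and 860, 41, 54 and 6254 in knockout replicates 1 to 4. No marker of any list was at 0. The part of other cells in the COMMD differences was not tested. Without knockout replicate 4, the array with the highest liver signal, 7 COMMD probe sets were lower, when 6.41% of all probe sets were. Knockout replicate 1, with a liver sum of 860, stayed in that fit.

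Xist, which is transcribed from the inactive X chromosome, gave 1828 and 1410 in knockout replicates 2 and 3 and 20 to 47 in the other arrays. Among the 6 arrays without Xist signal, 7 COMMD probe sets were lower, when 4.93% of all probe sets were. In the same arrays 3 Commander partners and 3 WASH genes were lower, and Ccdc22 was not called (adjusted p = 0.111, limma). The log2 ratio of 3′ to 5′ control signals, a sign of RNA quality, was -0.016 ± 0.029 (SD) in wild-type and 0.048 ± 0.035 in knockout arrays, a difference of 0.064 (exact permutation p = 0.0286, the smallest possible, two-sided). With this ratio as a covariate, 3 COMMD probe sets were lower, Commd4, Commd6 and Commd9 1438644_x_at, when 3.39% of all probe sets were. The differences of the other 5 were -0.47 in Commd7, -0.42 in Commd8, -0.57 and -1.01 in Commd9 1428155_at and 1454781_x_at, and -0.39 in Commd10. Every knockout array had a higher ratio than every wild-type array, so ratio and genotype cannot be fully told apart. The part of RNA quality in the COMMD differences was not tested. The Commander partners then kept 1 call and the WASH genes 3.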

How the data were processed

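The table deposited by the authors holds linear signal intensity values of 45101 probe sets for each array. The signal algorithm is not given in the sources used here. Their scaling was kept, since array medians differed by at most 0.158 as log2(signal + 16). The 64 control probe sets and the 40% with the lowest mean log2 value were left out. Genotype was the sole term of a linear model (limma 3.58.1, R 4.3.3, lmFit and eBayes with trend), two-sided, with Benjamini-Hochberg adjustment over 27022 probe sets and calls under 0.05. The fit was tested on simulated data. Of all probe sets, 34958 have 1 gene symbol in the platform annotation, 932 several and 9211 none; 34754 of the first were found by Entrez ID in RefSeq (GRCm38.p6), with 0 symbols updated. Promoters came from the same release. Fold changes understate changes of dim probe sets.

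The members and all gene lists were chosen with earlier results of these data known. Text names all members, up to 5 called genes per list by smallest p, and the 5 genes most like the member with the largest difference. The remaining called genes of retromer and its sorting nexins, Vps26b and Snx6, were added after their values were seen. Alternatives were other filters, offsets, normalization and models, covariates and each array left out, plus 1 added after seeing the data, which dropped both wild-type replicate 3 and knockout replicate 4. The number of arrays limits the precision.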

Additional observations from a re-analysis of the deposited data

Results flagged for a closer look

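Among 94 groups of 4 arrays, 11 held an array whose gap to the nearest other was too large a share of the range by Dixon's test at the 95% level. Chance gives about 1 in 20. In Commd9 1438644_x_at, knockout replicate 4 had a signal of 213 against 428 to 472 in the other knockouts, and wild-type replicate 4 had 903 against 1015 to 1025. In Commd1 1424122_s_at, knockout replicate 3 had 621 against 654 to 659. Among the partners, Vps26c had 717 in wild-type replicate 4 against 613 to 628, and Ccdc93 1434953_at had 190 in knockout replicate 1 against 299 to 319. Lrp2 had 14 in knockout replicate 3 against 5 to 6, all dim. Sod1 had 2739 in wild-type replicate 4 against 3333 to 3358, and 4850 in knockout replicate 3 against 3970 to 4095. Mt1 had 6797 in knockout replicate 1 against 7601 to 7639, and Mt2 had 5519 in wild-type replicate 3 against 404 to 583. The dim Plagl2 probe set 1417518_at had 2 in knockout replicate 3 against 7 to 8. Their causes were not tested.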

How the results depend on the processing

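Over 21 alternatives, 46 named probe sets gave 961 values, of which 840 kept their call status, 110 lost a call, 11 gained one and 0 called values reversed. The 8 lower COMMD probe sets became 5 with the replicate block, when 4.31% of all probe sets were lower. They became 3 with the covariate of RNA quality (the log2 3′ to 5′ ratio), when 3.39% of all were. With 1 array left out they became 6 to 10, when 4.82% to 8.03% of all were. As mean of all its probe sets, Commd9 moved from -1.35 to -0.90 and Commd5 from -0.13 to -0.31. The 5 lower Commander partners became 1 with the block, 1 with the ratio, 3 with an Xist covariate, 3 on arrays without Xist signal, and 2 to 5 with 1 array left out. Counts for WASH (3 lower, 3 in each fit) and retromer (7 lower, 5 to 8) stayed within 1.5 times. The 1 higher cargo gene became 2 without moderation and 2 with array weights. The 2 lower cargo genes became 1 without a filter, with the block, without the trend, without moderation, with the Xist or ratio covariate and on arrays without Xist, and 1 to 3 with arrays left out; with an offset of 64, array weights or the 2 arrays left out together they became 3. The 4 higher copper genes became 2 with the block, 1 without the trend, 0 without moderation, with the Xist covariate or without Xist arrays, 2 with the ratio, and 1 to 4 with 1 array left out. The 0 lower copper genes became 1 with quantile normalization, the Xist covariate, no Xist arrays or both arrays left out, 2 with array weights, and 0 to 2 with 1 array left out. The 2 higher signalling genes became 1 without a filter, with the lowest 60% left out, an offset of 1, the block, no moderation, the Xist or ratio covariate or no Xist arrays, and 1 to 2 with 1 array left out. The 1 lower became 2 with the lowest 60% left out, quantile normalization or array weights, and 1 to 2 with 1 array left out. The causes were not tested. Replicate numbers are shared between genotypes in the labels. After removal of the genotype means, same-numbered arrays correlated at -0.011, -0.046, -0.274 and -0.12, and 0 of 8 arrays correlated best with their own number. No pairing by number was seen, but 4 arrays per genotype are too few to exclude one. With the block, 751 probe sets were higher and 1164 lower, against 1427 and 1811.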
